A study of Mus musculus with 16 samples.

Results

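The CIB family of calcium- and integrin-binding proteins was examined in livers of mice that carry a Pdgf-c transgene. Its 4 mouse genes are Cib1, Cib2, Cib3 and Cib4. Cib3 was picked because it was among the strongest rises of the array, and the other members were taken with it as its family, whatever their values. Of the 4 genes, 3 had a row of the array table that was assigned to their symbol alone, among 19938 genes measured that way. Cib2 was matched to no row and was not analysed here. A row is the value of 1 transcript cluster, and where a gene had several the one with the highest mean over all arrays was used, although Cib1, Cib3 and Cib4 had 1 row each.

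Total liver RNA was hybridised to 16 Affymetrix Mouse Gene 1.0 ST arrays, 7 from Pdgf-c transgenic mice and 9 from wildtype mice, all of the C57BL/6 background. The labels give no age, do not name the promoter of the transgene and do not say whether each array is a separate animal, so p-values measure the spread between these samples, which may be partly technical. The source labels read stromal cells while the protocol describes hepatic RNA. The array values bear on this: Alb, the albumin gene of hepatocytes, averaged 13.54 ± 0.0366 in transgenic and 13.56 ± 0.0777 in wildtype arrays on the log2 scale (SD, n = 7 and 9), and 99.96% of rows had a lower mean. Pdgfc, the mouse gene that the transgene is named for, was between 6.13 and 6.63 in transgenic arrays and between 5.76 and 6.19 in wildtype arrays, a 1.36-fold rise (0.44 ± 0.0873, limma adjusted p = 0.00132) with 6 of 7 transgenic arrays above all wildtype ones. Whether this row also detects RNA of the transgene is not known here.

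CIB proteins are small intracellular calcium sensors built from EF-hands, the helix-loop-helix motif that also holds calcium in calmodulin and in the regulatory subunit of calcineurin. CIB1 was named for its binding to the cytoplasmic tail of the platelet integrin alpha IIb, and it also binds kinases such as PAK1. CIB2 and CIB3 associate with the TMC channel proteins of inner ear hair cells in mice. CIB4 is the least studied member and is known mainly from mouse testis.

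The sequence around the annotated start is shown for the 3 measured genes because the windows differ in their CG content. Each run covers 250 bases before to 50 bases after the start on the minus strand in RefSeq, build GRCm38.p6, with every CG dinucleotide in capitals.
Cib3, chr8:72212788-72213087: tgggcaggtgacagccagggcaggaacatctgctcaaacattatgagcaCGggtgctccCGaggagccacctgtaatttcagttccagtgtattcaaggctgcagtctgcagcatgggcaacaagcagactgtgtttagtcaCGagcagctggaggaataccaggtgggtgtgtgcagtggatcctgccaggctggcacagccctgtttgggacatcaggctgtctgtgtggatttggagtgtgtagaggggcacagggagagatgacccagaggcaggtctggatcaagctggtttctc
Cib1, chr7:80232756-80233055: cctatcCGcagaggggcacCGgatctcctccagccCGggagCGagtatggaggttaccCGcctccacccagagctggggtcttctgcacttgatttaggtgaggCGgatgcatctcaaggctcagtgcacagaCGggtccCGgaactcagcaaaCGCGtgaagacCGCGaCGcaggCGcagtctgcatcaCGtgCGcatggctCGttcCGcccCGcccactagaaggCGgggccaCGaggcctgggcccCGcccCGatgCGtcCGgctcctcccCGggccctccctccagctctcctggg
Cib4, chr5:30545787-30546086: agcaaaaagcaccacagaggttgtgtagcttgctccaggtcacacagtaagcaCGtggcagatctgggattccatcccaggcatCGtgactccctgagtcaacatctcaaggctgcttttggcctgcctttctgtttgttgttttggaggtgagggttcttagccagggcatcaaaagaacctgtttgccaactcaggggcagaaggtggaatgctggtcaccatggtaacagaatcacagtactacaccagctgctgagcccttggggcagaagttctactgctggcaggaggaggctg
The Cib3 window holds 3 CG dinucleotides and the Cib4 window 2, against 26 in the Cib1 window and a median of 7 over 32841 promoter windows of the same length. Of all windows, 23.3% have fewer than Cib3, 14.1% fewer than Cib4 and 83.1% fewer than Cib1. The RefSeq start used for Cib3 lies 249 bases inside the outer bound of the gene, so nearly all of this window lies within that bound. The start of Cib1 lies at its outer bound and that of Cib4 9 bases inside. The Cib3 window is therefore not a like region to theirs, which limits the comparison of CG counts and letters. On either strand, the letters TATAAA and CCAAT are in none of the 3 windows, and they are in 13.6% and 37.4% of all windows. GGGCGG, the core of a GC box, is in the Cib1 window only among these 3 and in 35.7% of all windows. TGACTCA, the core bound by AP-1, and GGAATG, the core bound by TEAD factors, are in the Cib4 window only among these 3, and in 5.20% and 14.66% of all windows. These are matches of letters, and the arrays do not measure binding.

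Cib3 was much brighter in the transgenic livers. Its log2 values were 10.16, 9.46, 10.18, 10.10, 9.23, 10.40 and 10.16 in transgenic arrays 1 to 7. In wildtype arrays 1 to 9 they were 7.14, 7.13, 6.27, 5.60, 7.29, 6.89, 6.62, 6.55 and 7.55. Every transgenic array lay above every wildtype array, and the lowest transgenic value (9.23, array 5) exceeded the highest wildtype value (7.55, array 9) by 1.68 on the log2 scale, or 3.2-fold. The mean was 9.96 ± 0.434 in transgenic arrays and 6.78 ± 0.597 in wildtype arrays (SD, n = 7 and 9). The difference of 3.17 ± 0.242 (SE of the limma fit) is 9.03-fold. These values chose the gene, so they are a description with no test.

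The size and the spread of that difference can be set beside other genes, again as a description. Cib3 had the 6th largest rise of 19938 genes. Counting only genes with every transgenic value above every wildtype value, 25, itself included, had a space between the groups at least as wide. Among the 20 largest rises its standard error was the second largest, below that of the calgranulin gene S100a8 (0.245) and above that of Tff3 (0.235), which encodes a secreted trefoil peptide. Mgp and Pdgfra, with rises of 4.40 and 3.17, had standard errors of 0.0766 and 0.102. Over the 63 pairs of 1 transgenic and 1 wildtype array, the Cib3 difference was between 1.68 and 4.80, with a median of 3.05.

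**Figure D1:**
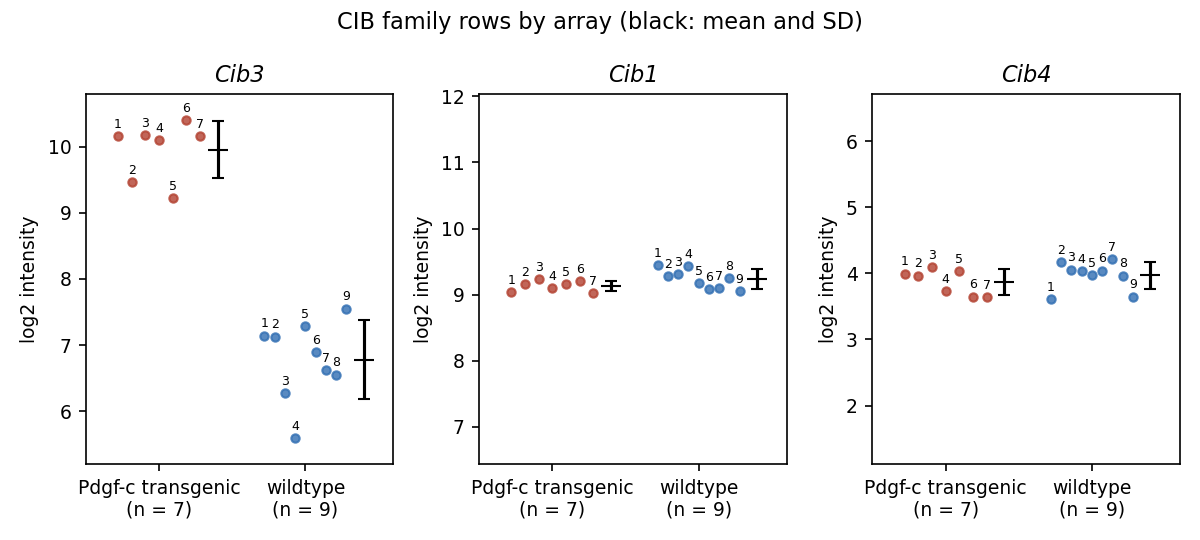
Log2 intensity (vertical axis, the same span of values in each panel) of Cib3, Cib1 and Cib4 in each of 7 Pdgf-c transgenic (red) and 9 wildtype (blue) arrays, numbered by replicate, with the mean and SD of each group in black. The group means of Cib3 differ by 3.17 and its groups do not overlap, whereas those of Cib1 and Cib4 do.

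Cib1 did not pass the test. Its log2 values in transgenic arrays 1 to 7 were 9.04, 9.16, 9.24, 9.10, 9.16, 9.20 and 9.02. In the 9 wildtype arrays the lowest was 9.06, the median 9.25 and the highest 9.45. The groups overlapped: 2 transgenic arrays lay below all wildtype arrays and the other 5 among them. The mean was 9.13 ± 0.0815 in transgenic and 9.24 ± 0.146 in wildtype arrays (SD, n = 7 and 9), a difference of -0.11 ± 0.0606 with an adjusted p of 0.257 (limma, Benjamini-Hochberg over 35557 rows). The 95% interval of the difference ran from -0.23 to 0.02.

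Cib4 had dim values in both groups. In transgenic arrays 1 to 7 they were 3.99, 3.96, 4.09, 3.73, 4.04, 3.65 and 3.64. The 9 wildtype arrays had a lowest value of 3.61, a median of 4.04 and a highest value of 4.22. All transgenic values lay within the wildtype range. The mean was 3.87 ± 0.193 in transgenic and 3.97 ± 0.209 in wildtype arrays (SD, n = 7 and 9). The difference was -0.10 ± 0.102, with an adjusted p of 0.586 (limma, Benjamini-Hochberg over all rows) and a 95% interval from -0.31 to 0.12. Only 26.8% of the rows of the table have a lower mean than Cib4, and detection calls were not analysed here, so whether this row reports Cib4 RNA is not known.

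Of the 2 relatives of Cib3 that were measured, 0 were called at an adjusted p of 0.05. By their unadjusted p-values, 0.0944 for Cib1 and 0.359 for Cib4 (limma), 0 passed 0.05 as well. As background, limma called 18.9% of all rows, with 10.6% up and 8.26% down in transgenic livers. That split moved with the scaling: 3785 rows were up and 2936 down on the deposited values, 3583 and 3829 after quantile normalization, and 2873 and 4688 on median-centred values. By gene it called 23.2%, with 12.1% up and 11.1% down. The groups did not overlap in 9.08% of genes, and in 5.43% every transgenic value was the higher one, as it was for Cib3. With 2 relatives no share can be read against these figures.

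The spread of Cib3 between arrays of 1 group was wide. In transgenic arrays it ranged over 1.17, or 2.25-fold, with arrays 2 and 5 at 9.46 and 9.23 and the other 5 between 10.10 and 10.40. The space of 0.637 between array 2 and the next value was the widest within that group. In wildtype arrays it ranged over 1.95, or 3.87-fold, with array 4 lowest at 5.60 and array 9 highest at 7.55. An SD of 0.434 in the transgenic group was larger than that of 99.1% of genes, and an SD of 0.597 in the wildtype group was larger than that of 99.8%. Against genes with a group mean within 0.5 of its own, it was larger than 98.2% of 715 genes in the transgenic group, whose median SD was 0.132, and 99.8% of 2756 genes in the wildtype group, whose median SD was 0.135.

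**Figure D2:**
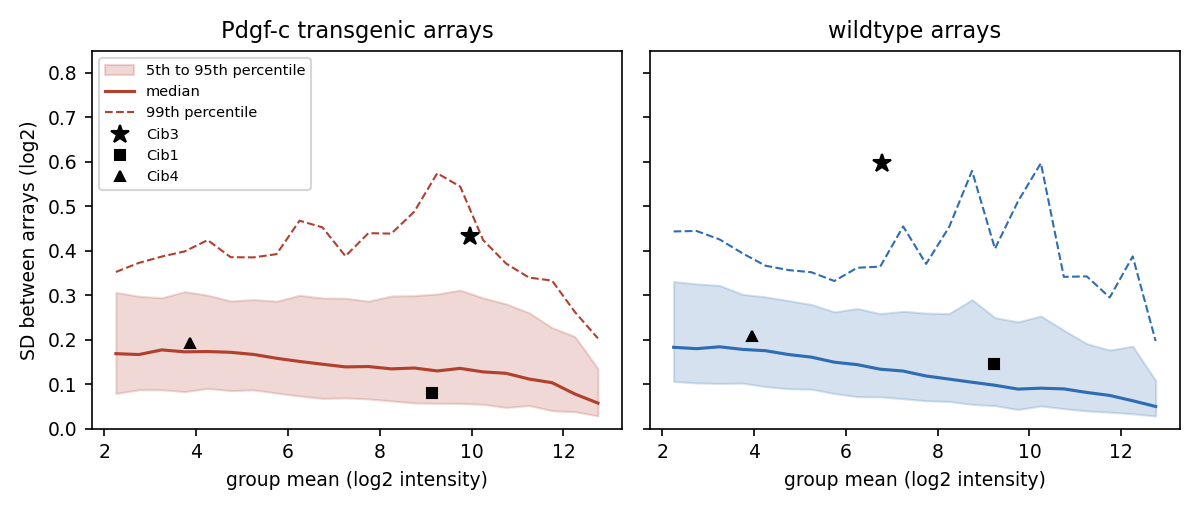
SD between arrays (vertical axis, log2) against the group mean (horizontal axis, log2 intensity) in Pdgf-c transgenic (left) and wildtype (right) arrays, with the median, the 5th to 95th percentile band and the 99th percentile (dashed) of all genes in bins of 0.5. Cib3 (star) lies at 0.434 and 0.597, far above the median, and Cib1 (square) and Cib4 (triangle) lie inside the band in both groups.

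Whether the level of Cib3 within a group moved with other genes was asked of 9 genes in each group: its relatives Cib1 and Cib4, the mouse gene Pdgfc, the stromal genes Pdgfra, Cd34, Col1a1 and Mgp, the hepatocyte gene Alb and the fatty acid hydroxylase gene Cyp4a14. The groups are separate clusters, so each was taken on its own and no correlation of the levels was computed over both. Of the 18 relations 0 reached an adjusted p of 0.05 (exact permutation tests over pairings, two-sided, Benjamini-Hochberg over 18 relations), and the smallest unadjusted p was 0.179 for Pearson's r and 0.0760 for Spearman's rho. The smallest p these tests allow is 0.000397 with 7 arrays and 5.51e-06 with 9.

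The relation with Pdgfc, the mouse gene that the transgene is named for, had r = 0.40 (exact permutation p = 0.390, adjusted 0.783) and rho = 0.18 (exact p = 0.713, adjusted 0.856) over the 7 transgenic arrays. Without the 2 arrays farthest from the Pdgfc median, r was -0.35, so its sign rests on those arrays. Over the 9 wildtype arrays r was -0.49 (exact permutation p = 0.180, adjusted 0.783) and rho -0.63 (exact p = 0.0760, adjusted 0.851), and r was -0.07 without the 2 farthest arrays.

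For Col1a1, the fibrillar collagen gene, r was 0.59 (exact permutation p = 0.1998, adjusted 0.783) and rho 0.21 (exact p = 0.662, adjusted 0.851) over the 7 transgenic arrays, and r was -0.08 without the 2 farthest. Over the 9 wildtype arrays r was -0.20 (exact permutation p = 0.606, adjusted 0.783). For Pdgfra, the receptor gene with a rise nearly equal to that of Cib3, r was 0.30 in transgenic arrays (exact permutation p = 0.553) and -0.002 in wildtype arrays (exact p = 0.995), with adjusted values of 0.783 and 0.995. With its relative Cib1, r was -0.10 in transgenic arrays (exact permutation p = 0.841, adjusted 0.896) and -0.49 in wildtype arrays (exact p = 0.179, adjusted 0.783). With Cib4 it was -0.51 and -0.46 (exact permutation p = 0.273 and 0.204, both adjusted to 0.783), and without the 2 farthest arrays -0.20 and 0.07. The other 4 genes had r between -0.28 and 0.25 in transgenic arrays and between -0.32 and 0.32 in wildtype arrays, all with an adjusted p of at least 0.783 for r and 0.851 for rho (exact permutation tests). Among them r with Alb in transgenic arrays was -0.11, and -0.93 without the 2 farthest arrays.

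Genes whose array-to-array pattern was most like that of Cib3 were looked up over the deviations of all 16 arrays from their group means, which takes the difference between the groups out. Among 11556 genes brighter than the median row, the 5 highest Pearson correlations were those of Ercc6 (r = 0.87), a DNA repair gene, Chst14 (0.86), a sulfotransferase of dermatan sulfate, Bmt2 (0.84), Tfpi (0.83), an inhibitor of the tissue factor pathway of clotting, and Mast2 (0.83), a kinase. The 5 lowest were Pbld2 (-0.88), Gypc (-0.83), a glycophorin of red blood cells, Gm11555 (-0.81), and the receptor tyrosine kinase genes Fgfr3 (-0.80) and Ror2 (-0.78). They are the extremes of 11556 values over 16 arrays and come with no p. Values of 1 array share its hybridisation and scaling, so deviations of different genes are not independent.

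Pbld2 was the strongest of these in either direction. Its r with Cib3 was -0.93 in transgenic and -0.89 in wildtype arrays, and Cib3 itself deviated most in transgenic array 5 (-0.73) and wildtype array 4 (-1.18), where Pbld2 deviated by 0.23 and 0.18. For other genes of this set the groups were less alike: r was 0.43 in transgenic and 0.97 in wildtype arrays for Tfpi, 0.48 and 0.96 for Bmt2, and -0.45 and -0.92 for Ror2. The difference between the groups was not tested. The stromal genes stood elsewhere in that order: by the same measure Pdgfra had r = 0.10, Cd34 0.19, Col1a1 -0.01 and Mgp -0.07 with Cib3. Pdgfc had -0.12, Alb 0.23 and Cyp4a14 -0.28. Its relatives Cib1 and Cib4 had -0.40 and -0.48.

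**Figure D3:**
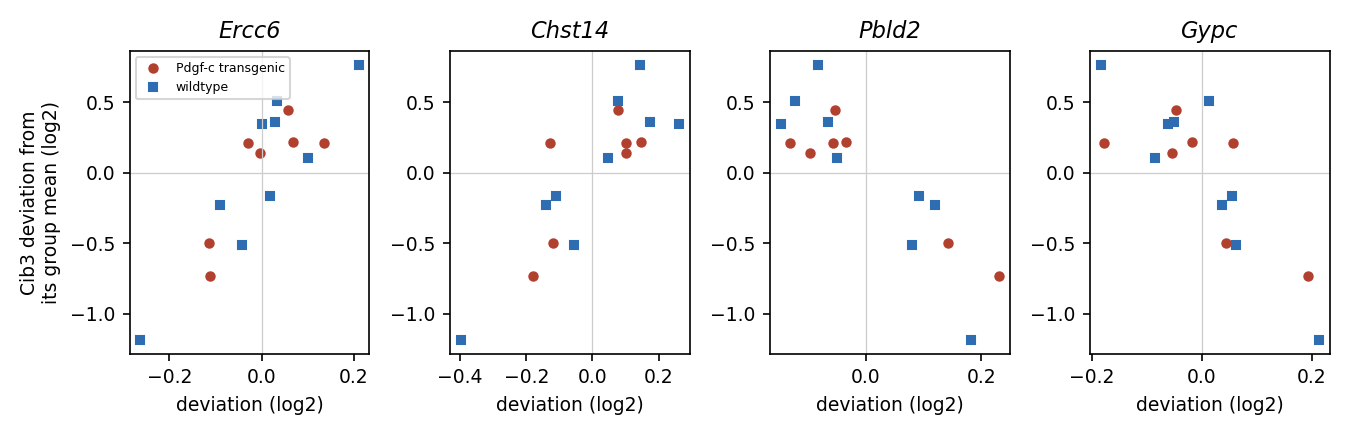
Deviation of Cib3 from its group mean (vertical axis, log2) against the deviation of Ercc6, Chst14, Pbld2 and Gypc (horizontal axes, log2) in 7 Pdgf-c transgenic (red circles) and 9 wildtype (blue squares) arrays. These genes were picked for their correlations of 0.87, 0.86, -0.88 and -0.83, and wildtype array 4 has the lowest Cib3 deviation (-1.18).

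The genes beside Cib3 on chromosome 8 differed by at most 0.67. Taking the 3 nearest genes with a row on either side by the RefSeq order of GRCm38.p6, Tpm4, a tropomyosin of the actin cytoskeleton, was 0.67 ± 0.0516 higher in transgenic livers (limma adjusted p = 3.33e-08), and its groups did not overlap. Fam32a was 0.14 ± 0.0463 higher (limma adjusted p = 0.0493), a call that 18 of 26 alternatives removed. The small GTPase gene Rab8a differed by -0.11 ± 0.0415 (adjusted p = 0.0816), the olfactory receptor gene Olfr374 by -0.11 ± 0.128 (0.639), the clathrin adaptor gene Ap1m1 by 0.08 ± 0.0599 (0.393) and the endothelial transcription factor gene Klf2 by -0.05 ± 0.0620 (0.642), with limma p-values adjusted over all rows. These 6 differences lay between -0.11 and 0.67, against 3.17 for Cib3.

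Around the other 3 family genes, 18 neighbours were measured and 2 were called, both beside Cib1: Idh2, the mitochondrial isocitrate dehydrogenase gene, at 0.52 ± 0.0683 (limma adjusted p = 2.05e-05) and Ngrn at -0.15 ± 0.0422 (limma adjusted p = 0.0156). The 6 neighbours of Cib2 and the 6 of Cib4 had none called (limma). Over all 4 loci 4 of 24 neighbours were called, 3 higher and 1 lower, beside the 23.2% of all genes.

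**Figure D4:**
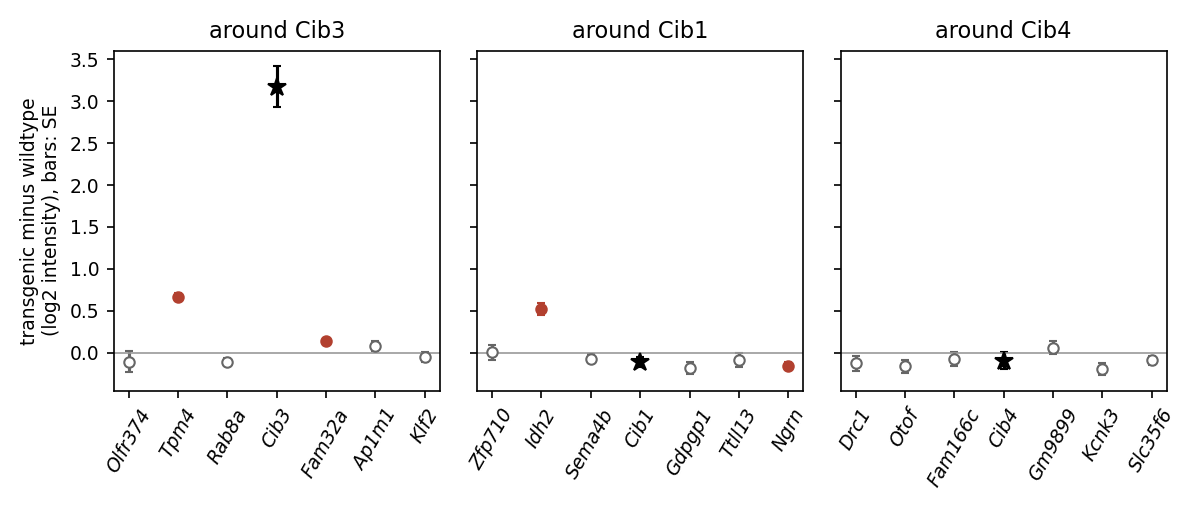
Difference of transgenic minus wildtype (vertical axis, log2 intensity, bars show the SE) for Cib3, Cib1 and Cib4 (stars) and the 3 nearest measured genes on either side, in chromosome order but not to scale of distance. Filled red circles were called by limma and open circles were not, and Cib3 stands at 3.17 while its neighbours lie at or below 0.67.

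Other EF-hand genes and known partners of CIB proteins were read next, in 7 lists chosen by function. Of 85 listed genes 78 were measured, of which 20 rose, 6 fell and 52 did not pass the test (limma, adjusted p of 0.05 over all rows), that is 25.6% higher and 7.69% lower beside 12.1% and 11.1% of all genes. This split moved with the scaling, as it did over all rows: 15 were called higher and 8 lower after quantile normalization, and 14 higher and 12 lower on median-centred values. The median difference was 0.05, against -0.04 over all genes. The lists were uneven: 8 of the 20 rises came from the list of secretory pathway and matrix proteins, which had 8 under both rescalings too.

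The partners of CIB proteins in hair cells were a mixed set of small changes. Of 9 measured, 1 rose and 2 fell, with a median of -0.08, and under both rescalings 0 rose and 2 fell by limma. Only 3 of the 9 were brighter than the median row, and whether the dimmer rows report RNA of their genes is not known. Tmc2, a channel subunit that binds CIB proteins, had dim values between 3.72 and 4.03 in transgenic arrays and between 3.90 and 4.29 in wildtype arrays. It fell by 0.27 on the log2 scale (-0.27 ± 0.0715, limma adjusted p = 0.0101), but only 28.8% of rows have a lower mean, so, as for Cib4, whether this row reports Tmc2 RNA is not known. Tmie, which encodes a membrane protein of the same channel complex, was at -0.31 ± 0.0834 (limma adjusted p = 0.0140). Myo7a, an unconventional myosin, rose by 0.15 ± 0.0485 (limma adjusted p = 0.0334), a call that 10 of 26 alternatives removed. Tmc1 differed by -0.10 ± 0.0712 (limma adjusted p = 0.384). Only 17.9% of rows have a lower mean than Tmc1, so the limit given for Tmc2 holds for it too.

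Of 15 binding partners of CIB1 and CIB2, 3 rose and 3 fell, with a median of -0.02. On median-centred values 1 rose and 4 fell. Sphk1, the sphingosine kinase that CIB1 brings to the membrane, had values from 5.86 to 6.30 in transgenic arrays and 5.36 to 5.94 in wildtype arrays. It rose by 0.38 ± 0.0878 (limma adjusted p = 0.00427), and 5 of 7 transgenic arrays lay above all wildtype arrays. Itga7, an integrin alpha chain of muscle, was at -0.28 ± 0.0531 (limma adjusted p = 0.000990), with all 7 transgenic arrays below all 9 wildtype arrays. Was, a regulator of actin in blood cells, rose by 0.27 ± 0.0835 (limma adjusted p = 0.0296), a call that 7 of 25 alternatives removed. The integrin gene Itga2b, whose product gave the family its name, was at -0.18 ± 0.0600 (limma adjusted p = 0.0470), a call lost with the replicate number as a block. How many other alternatives removed this call is not given here. Without each array in turn, 2 to 4 of the 15 partners were called lower by limma.

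Among calcium sensors related to CIB proteins, Hpca had the largest difference. Hpca, which encodes the neuronal calcium sensor hippocalcin, had log2 values of 5.91 to 6.92 in transgenic arrays and 5.14 to 5.65 in wildtype arrays. Each transgenic value exceeded each wildtype value, and the rise was 1.88-fold (0.91 ± 0.115, limma adjusted p = 1.31e-05). Of the 12 measured neuronal calcium sensors and KChIP channel subunits 2 rose and 0 fell by limma on the deposited values, 1 rose and 0 fell after quantile normalization, and 1 rose and 2 fell on median-centred values. Only 4 of the 12 were brighter than the median row, and whether the dimmer rows report RNA of their genes is not known. Beside Hpca, Kcnip3 rose by 0.28 ± 0.0911 (limma adjusted p = 0.0414), a call that 13 of 25 alternatives removed. Of 14 calcineurin, CHP and NFAT genes 2 rose and 0 fell by limma on the deposited values, against 1 and 2 after quantile normalization and 1 and 1 on median-centred values. The 2 that rose were Ppp3cc, a catalytic subunit of calcineurin, by 0.43 ± 0.107 (limma adjusted p = 0.00716), and Chp2, a calcineurin-like regulator of sodium-proton exchange, by 0.26 ± 0.0765 (0.0204), though not after either rescaling or with the replicate number as a block (adjusted p = 0.0892 at most).

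Of 9 calmodulins and calcium buffers 2 rose, and 1 other fell on median-centred values. Only 3 of these 9 were brighter than the median row. Calm3 rose by 0.33 ± 0.0597 (limma adjusted p = 0.000584) with no overlap of the groups, and Calm2 by 0.24 ± 0.0466 (limma adjusted p = 0.000953), while a second Calm2 row stood at 0.16 ± 0.0576 (0.0709). Of 7 penta-EF-hand proteins 2 rose, Sri, which encodes sorcin, by 0.39 ± 0.0670 (limma adjusted p = 0.000362) with no overlap, and Gca, which encodes grancalcin of leukocytes, by 0.25 ± 0.0857 (limma adjusted p = 0.0485), a call that 16 of 26 alternatives removed.

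The largest rises of the 7 lists were those of secreted EF-hand proteins. Of 12 secretory pathway and matrix genes 8 rose and 1, Smoc1, fell, with a median of 0.44, and on median-centred values 2 fell. Sparcl1, a secreted relative of the matrix glycoprotein SPARC, was between 7.95 and 8.99 in transgenic arrays and between 6.03 and 6.72 in wildtype arrays, a 4.52-fold rise (2.18 ± 0.134, limma adjusted p = 1.51e-09). Fstl1, a follistatin-like glycoprotein, rose 3.84-fold (1.94 ± 0.0785, limma adjusted p = 7.26e-12), and Smoc2, a matricellular calcium-binding protein, 3.25-fold (1.70 ± 0.104, limma adjusted p = 1.40e-09). In 7 of the 12, all among the 8 that rose, every transgenic value was the higher one, beside 5.43% of all genes.

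**Figure D5:**
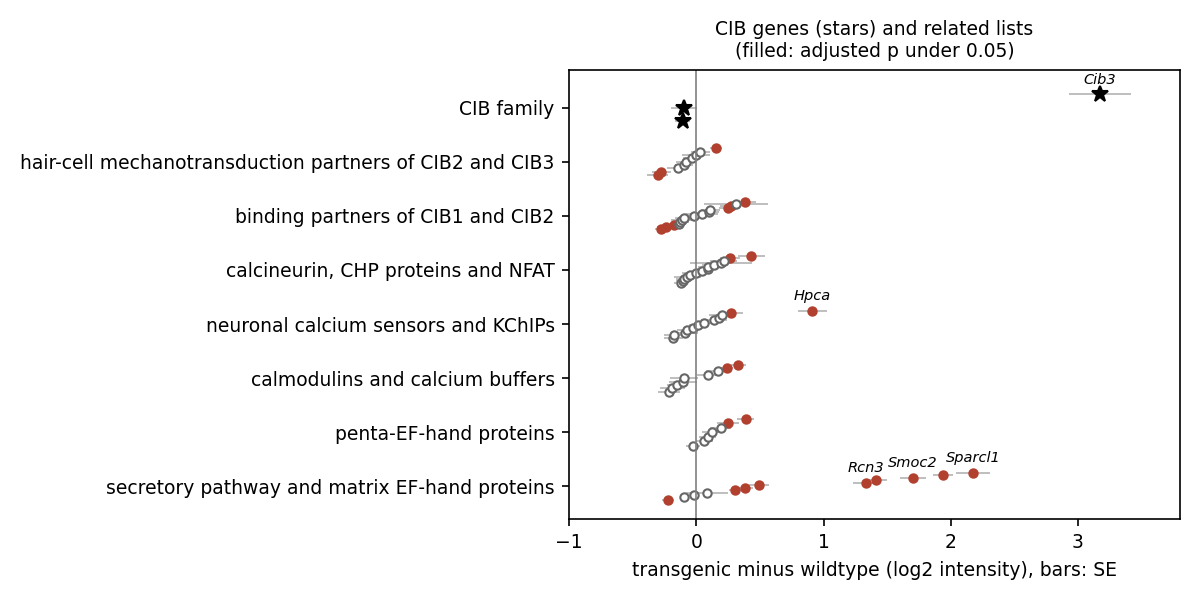
Difference of transgenic minus wildtype (horizontal axis, log2 intensity, bars show the SE) for the 3 measured CIB genes (stars) and for 78 genes of 7 lists, with filled circles for an adjusted p under 0.05. Cib3 lies at 3.17, Hpca at 0.91, and the rises above 1 other than Cib3 are in the secretory pathway and matrix list.

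Markers of several liver cell types also differed between the groups, and in bulk RNA more cells of a type and more RNA per cell cannot be told apart. Over all genes limma called 12.1% higher and 11.1% lower. The marker counts are those of the deposited values, and their counts after rescaling are not given here. Of 6 stellate cell and fibroblast markers 6 rose, and their mean level per array ran from 8.33 to 8.66 in transgenic and 6.56 to 7.18 in wildtype livers. Of 3 Kupffer cell markers 3 fell (5.14 to 6.49 in transgenic, 7.76 to 8.61 in wildtype), 2 of 2 monocyte markers rose (6.23 to 6.78 against 4.21 to 4.60) and 3 of 3 neutrophil markers rose (5.74 to 7.31 against 3.92 to 4.58). Of 3 portal fibroblast markers 2 rose (6.81 to 6.98 against 5.303 to 5.71), of 3 sinusoidal endothelial markers 2 fell (6.59 to 7.29 against 7.72 to 8.19), and 2 of 2 B cell markers rose (3.72 to 4.36 against 3.29 to 3.90). The 2 B cell rows are dim (28.5% and 22.6% of rows have a lower mean), and their groups overlapped. As for Cib4, whether these rows report RNA of their genes is not known. Of 5 hepatocyte markers 1 rose and 2 fell (12.70 to 12.87 against 12.75 to 12.95). None of 3 cholangiocyte markers (5.19 to 5.40 against 5.16 to 5.35) and none of 3 T cell markers (4.78 to 5.13 against 4.77 to 4.97) was called by limma. The part of these cell types in the differences of Cib3 and of the listed genes was not tested.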

How the data were processed

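Gene expression was measured in liver RNA with 1 array per sample. The deposited values are log2 intensities that the authors made with GCRMA, per the submitters' processing notes. Its version and settings, and the log base, are not given in the sources used here, and the base was read from the range of 0.710 to 14.67. Column medians were 5.20 to 5.36.

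Of 35557 rows, 21789 had 1 symbol in the platform annotation, 1621 had several and 12147 were not listed. The groups came from the sample titles. All rows were fitted with limma 3.58.1 in R 4.3.3 (lmFit, eBayes with trend, two-sided, 14 residual degrees of freedom), with Benjamini-Hochberg adjustment over all rows, a threshold of 0.05 and no filter. The fit was tested on simulated data. Pearson's r between arrays over all rows was 0.984 to 0.991 within the transgenic group, 0.982 to 0.991 within the wildtype group and 0.976 to 0.987 between them. No pair of same-numbered arrays of the 2 groups deviated together (r over all rows from -0.02 to 0.09, 7 pairs), so the replicate number is not treated as a pairing.

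Named genes were the CIB genes, 9 genes related to Cib3 within groups, 3 neighbours on either side (only those of Cib3 and the called ones are named), the largest called differences of each list (at most 3) and the 5 highest and 5 lowest correlations with Cib3; Tmc1, Itga2b and Smoc1 were added later, with their values known. The members and lists were chosen with earlier results of these data known. The fit was repeated without each array in turn, with the replicate number as block, with weights per array, with eBayes made robust or its trend dropped, on quantile-normalized or median-centred values, on values floored at their 20th percentile, on brighter rows only, on single-symbol rows only and on the mean of all rows of a gene. The block fit used only replicate numbers present in both groups, so it also left out wildtype arrays 8 and 9. Python 3.11.15 and matplotlib 3.10.9 made the plots.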

Additional observations from a re-analysis of the deposited data

Results flagged for a closer look

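For 45 of the genes named in the text, not all of them, each group of arrays was searched for 1 array far from the rest. That made 90 groups in all, where chance gives about 1 in 20. No CIB gene had such an array, although Cib3 varied widely. There were 3 such cases. The Alb value of wildtype array 9 was 13.74, above the next highest of 13.60. The Fam32a value of wildtype array 6 was 8.89, below the next lowest of 9.05. The Idh2 value of transgenic array 1 was 10.61, below the next lowest of 10.99.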

How the results depend on the processing

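The Cib3 difference stayed between 3.03 (without wildtype array 4) and 3.30 (without transgenic array 5) over 26 alternatives, or 8.15-fold to 9.82-fold, and was 3.25 with the replicate block. Its SD was 0.320 to 0.470 in transgenic and 0.426 to 0.637 in wildtype arrays when each array was left out. Cib1 and Cib4 kept their direction and were not called under any alternative run, with differences of -0.13 and -0.14 with the replicate block; without each array in turn they ran from -0.13 to -0.08 and from -0.14 to -0.06. Cib1 was at -0.16 on median-centred values (adjusted p = 0.0840, limma) and -0.07 after quantile normalization (0.509), and Cib4 at -0.15 on median-centred values (adjusted p = 0.285, limma). Cib4 was too dim for the restriction to brighter rows. Of all rows, limma called 3785 up and 2936 down, against 2873 and 4688 on median-centred values, 3583 and 3829 after quantile normalization, 3488 and 2234 with the replicate block, and 3380 to 3957 and 2513 to 2984 without each array. The median row shifted by -0.03, and by -0.08 after centring.

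Among the named genes some calls were lost: Fam32a, Gca, Kcnip3, Myo7a and Was under the numbers of alternatives given above, where every single array ended the call of Fam32a when left out except transgenic 4 and wildtype 8 and 9, and that of Gca except transgenic 2 and 3 and wildtype 2, 6 and 9; Chp2 under quantile normalization, centring and the block; and Ngrn with the block (adjusted p = 0.0865). Single arrays whose removal ended the call were transgenic 1, 3, 6 and 7 and wildtype 1, 2, 5, 8 and 9 for Kcnip3, transgenic 2 to 5 and wildtype 1, 3 and 5 for Myo7a, and transgenic 1, 3, 4 and 5 and wildtype 2 for Was. Itga2b also lost its call with the block, where Itga7 was the only binding partner of CIB1 and CIB2 still called lower. Rab8a was called lower after centring and without transgenic array 6 (smallest adjusted p 0.0258). The Alb difference was 0.0240 after quantile normalization and ran from -0.0304 (without wildtype array 5) to 0.00136 (without wildtype array 9).

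Some correlations of Cib3, none of which passed its test, changed sign. In transgenic arrays r with Cib1 was 0.0177 after quantile normalization, 0.11 after centring and 0.35 without the 2 farthest arrays, r with Alb was 0.38 after centring, and r without the 2 farthest arrays was -0.35 with Pdgfc, -0.0455 with Pdgfra and -0.0766 with Col1a1. In wildtype arrays r with Pdgfra was 0.0412 after quantile normalization, 0.0443 after centring and 0.14 without the 2 farthest arrays, where r was 0.0667 with Cib4, 0.00595 with Col1a1 and 0.19 with Mgp. Alternatives for the most similar genes were added after the data were seen: r stayed between 0.72 and 0.91 for the 5 highest and between -0.90 and -0.67 for the 5 lowest. The cause of these shifts was not tested.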
